A study of Homo sapiens with 10 samples.

Results

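Transcript usage, the division of a gene's reads among its annotated transcripts, was compared between 2 nanopore instruments in IGROV-1, an established human ovarian cancer cell line. The genes described were those with 2 or more annotated transcripts and at least 50 counts in each of the 4 IGROV-1 libraries, which gave 4119 of the 57110 gene identifiers in the files (16449 of these list 2 or more transcripts). The series measured transcripts in 7 ovarian cancer cell lines in 10 libraries and served to benchmark a transcript quantification package. IGROV-1 had 2 PromethION libraries (replicates 1 and 2) and 2 MinION libraries (replicates 1 and 2), with no treatment named in the labels, with total RNA as the molecule and the same ligation library kit with 30 min of end repair. The labels do not say whether the replicates came from separate cultures, or whether both instruments received the same RNA, so p-values measure the spread between these libraries only.

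Most human genes give rise to several transcripts. Transcripts of one gene can begin at different promoters, join different exons, or end at different poly(A) sites, and each of these changes which untranslated or coding sequence the mRNA carries. A nanopore reads a single molecule from end to end where the molecule and the read are intact, and the PromethION and MinION pass molecules through the same kind of protein pore at different scale. A read that covers only the downstream part of an mRNA is compatible with every transcript that shares that part, so a transcript count is an estimate wherever such reads occur.

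The share of a transcript is its estimated count divided by the summed counts of its gene identifier, in percent. For each gene, the riser is the transcript whose mean share was most above PromethION on MinION, and the faller is the one most below; these are names for the sign of the difference, and whether a transcript passed the test is stated separately. Library totals were 2341102 and 2328087 counts on PromethION and 3666224 and 3236559 on MinION, of which 65.14% to 67.22% and 72.63% to 74.12% fell in the 4119 genes. The epithelial keratins KRT18 and KRT19 and the Müllerian lineage factor PAX8 were present in all 4 libraries (PAX8 at 134 to 211 CPM, counts scaled to the library's total). KRT8, the usual partner of KRT18, was at 5.15 to 11.4 CPM, whereas EPCAM reached at most 1.54 CPM and CDH1 and WT1 were listed at 0. PECAM1 (endothelium) was at 0 and PTPRC (leukocyte) reached 0.309. Of the fibroblast markers, DCN was at 0, COL1A2 reached 0.427 and COL1A1 was at 4.91 to 22.9 CPM. KRT18 was at 263 and 244 CPM in the replicates numbered 1 and at 1040 and 1080 in those numbered 2, and the collagen gene COL1A1 at 6.41 and 4.91 against 22.8 and 22.9 (PromethION first), so these genes followed the replicate number and not the instrument.

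Where the difference between instruments lay in the first exon, the start used more on PromethION was usually the upstream one. The promoter windows of 4 such upstream starts are shown because the transcripts that begin there (the fallers of MAD2L2, PSMD8, MTX1 and CDK1) lost most of their share on MinION. Each window runs from 120 bases before the annotated start to 30 bases from it on, 5′ to 3′ on the strand of the gene, and capitals mark the first 10 transcribed bases. The sequences are from RefSeq on GRCh38.p14, where the 4 annotated starts lie within 100 nt of a RefSeq start. Other upstream starts that lost share lie further from one, at 3211 nt in ID2, 412 nt in TPI1, 838 nt in FKBP3 and 1375 nt in PLEKHJ1. Over the matched called genes whose start moved downstream, the upstream start lay within 100 nt of one in 36 of 67.
MAD2L2 ENST00000235310, chr1:11691621-11691770 (-): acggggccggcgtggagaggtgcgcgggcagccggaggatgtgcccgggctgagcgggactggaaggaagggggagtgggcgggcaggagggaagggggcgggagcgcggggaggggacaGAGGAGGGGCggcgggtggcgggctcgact
PSMD8 ENST00000215071, chr19:38374416-38374565 (+): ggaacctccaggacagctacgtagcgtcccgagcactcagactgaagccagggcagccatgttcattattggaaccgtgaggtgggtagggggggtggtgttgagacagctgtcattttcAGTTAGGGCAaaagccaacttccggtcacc
MTX1 ENST00000368376, chr1:155208579-155208728 (+): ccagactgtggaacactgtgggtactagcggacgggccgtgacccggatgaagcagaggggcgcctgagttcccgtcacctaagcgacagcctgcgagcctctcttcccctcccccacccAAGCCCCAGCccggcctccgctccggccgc
CDK1 ENST00000395284, chr10:60778334-60778483 (+): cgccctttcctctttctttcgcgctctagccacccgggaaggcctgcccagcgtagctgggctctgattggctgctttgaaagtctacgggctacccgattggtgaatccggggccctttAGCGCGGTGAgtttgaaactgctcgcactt

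Usage differed more between instruments than between replicates. The usage distance of a gene between 2 libraries is the part of its counts, in percentage points, that sits on different transcripts in the one and the other. It had a median over the 4119 genes of 2.14 between the PromethION replicates and 2.04 between the MinION replicates. Across instruments the 4 medians were 2.61, 2.73, 2.80 and 2.83. The pairs share libraries and genes, so these are descriptions. A distance of 20 points or more was seen in 141 genes between PromethION replicates and 106 between MinION replicates, and in 275 to 293 genes across instruments.

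**Figure D1:**
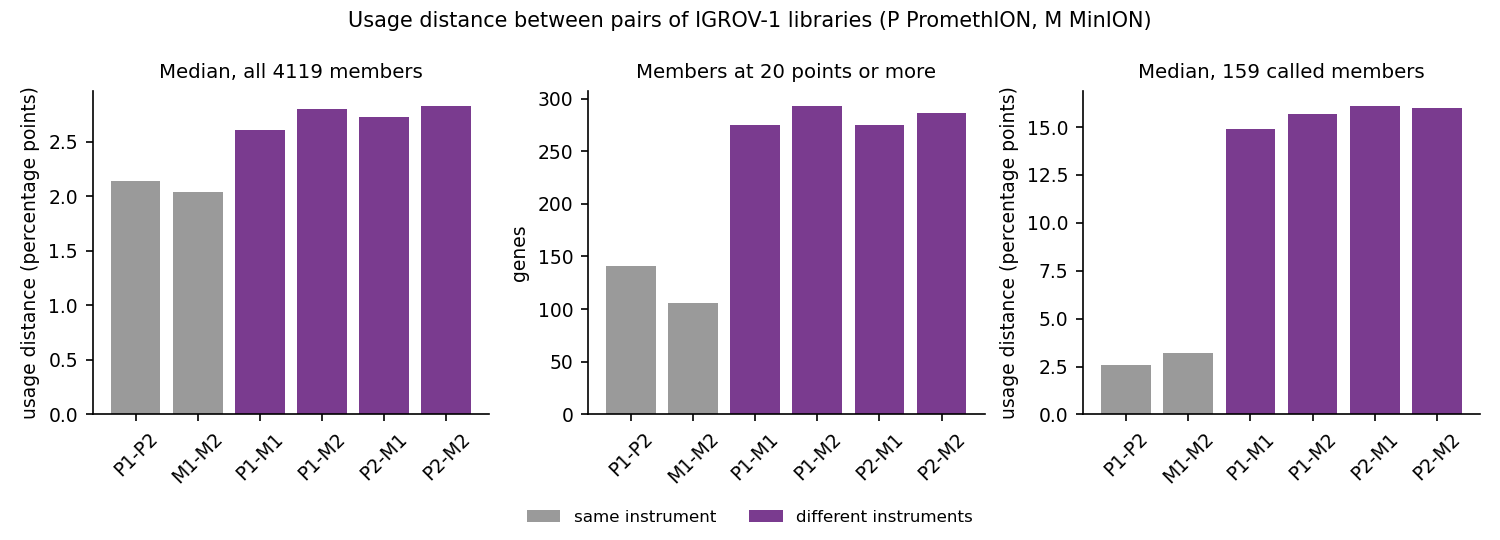
Usage distance in percentage points for the 6 pairs of IGROV-1 libraries (P1, P2, M1, M2: PromethION and MinION replicates), as the median over 4119 genes (left), the number of genes at 20 points or more (middle) and the median over the 159 genes called by the usage test (right). Grey bars are pairs on 1 instrument (medians 2.14 and 2.04) and purple bars pairs on different instruments (2.61 to 2.83). Each of the 4 purple bars is above both grey bars in the left and middle panels. The same holds in the right panel, whose genes were chosen by that contrast.

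Usage was tested with edgeR's quasi-likelihood fit and its exon-level usage procedure applied to transcripts, over all genes, with a Simes p per gene and Benjamini-Hochberg adjustment. Over all genes, 5.98% of 2979 tested genes were called at an adjusted p under 0.05. Of the 4119 genes, 2280 had at least 2 transcripts abundant enough for the test and 159 of these were called (6.97% of those tested), while 1839 could not be tested. With PromethION replicate 1 or 2 left out 38 and 39 genes were called, and 60 with either MinION replicate left out. Single transcripts were also called: 127 of 5784 tested rose in share on MinION and 91 fell (together 3.77%), against 1.86% and 1.45% of all 7258 transcripts tested. These 218 transcripts lay in 183 genes, so some belong to genes that were not called. The shares of all 218 called transcripts, chosen by this contrast, did not overlap between instruments, where 49.8% of all tested transcripts did not overlap. In the called genes the median usage distance was 2.57 and 3.18 points within an instrument and 14.9 to 16.1 points across instruments, but these genes were chosen by that contrast. The median absolute log2 ratio of CPM between instruments for the whole gene was 0.202 in called genes and 0.2 in tested genes that were not called. At the edge of the rule, 244 genes had a lowest count of 50 to 55 and 250 with 2 or more transcripts lay just outside at 45 to 50.

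Starts moved downstream on MinION in the called genes. In 83 of the 159 called genes the riser began more than 50 nt downstream of the faller and in 27 it began upstream; the other 49 pairs started within 50 nt of each other. Among the 2119 tested genes that were not called and had a riser and a faller, 788 risers began downstream (37.2%) and 545 upstream (25.7%), against 52.2% and 17.0% of called genes. The size of the start differences over 50 nt had a median of 469 nt in called genes. In 67 of the 83 genes both starts could be set beside a RefSeq start, and the riser lay within 100 nt of one in 30 (44.8%) and the faller in 36 (53.7%). In the genes not called with a downstream riser the order was the opposite, with 354 risers (60.2%) and 331 fallers (56.3%) of 588; the difference was not tested. Weighting each start by its share is another summary of the same shares and not separate evidence. The called genes were also chosen by this contrast. The mean start lay over 50 nt further downstream on MinION, without overlap of the libraries, in 55 called genes (34.6%). It lay further upstream in 6 (3.77%). Over all 4119 genes the counts were 376 (9.13%) and 184 (4.47%).

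Transcript ends moved less often and in the direction of shorter transcripts. The riser ended more than 50 nt upstream of the faller in 46 called genes and downstream in 22, with 91 pairs ending within 50 nt. The median size of these end differences was 1418 nt. Among tested genes that were not called, 25.1% of risers ended upstream and 19.3% downstream. The riser was more than 50 nt shorter after splicing in 110 called genes (69.2%) and longer in 37 (23.3%), where the shares in the genes not called were 48.7% and 39.7%. The median difference in spliced length was -232 nt in called genes and -39.5 nt in the others.

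**Figure D2:**
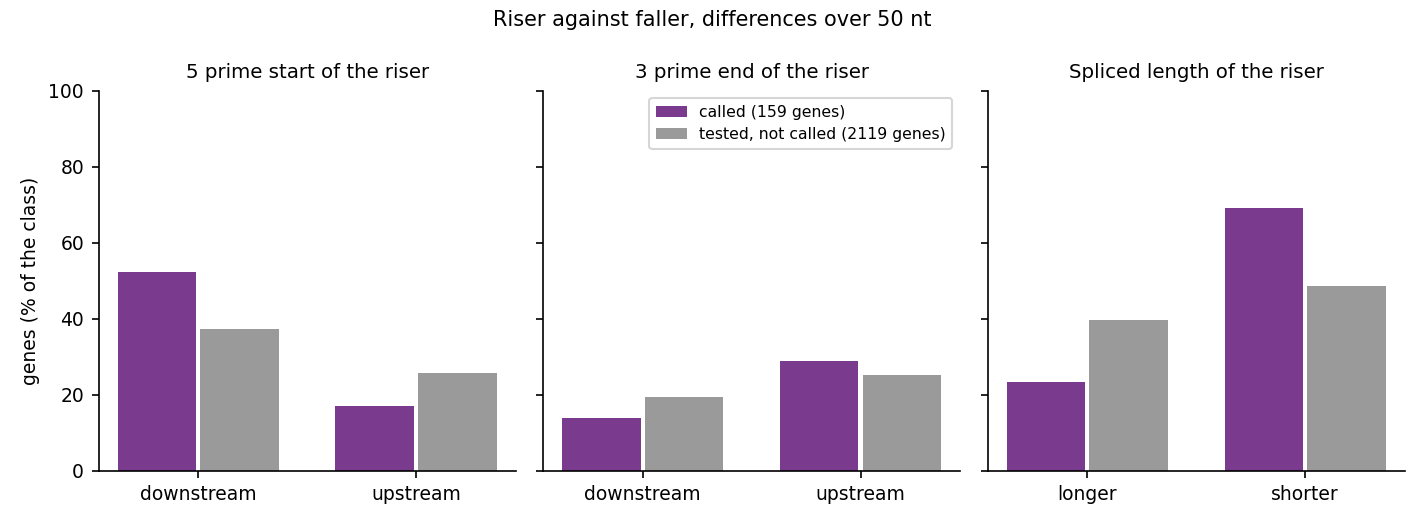
Percent of genes in which the annotated start (left), end (middle) or spliced length (right) of the riser differs from that of the faller by over 50 nt, by direction, for 159 called genes (purple) and 2119 tested genes that were not called (grey). Downstream starts (52.2% against 37.2%) and shorter transcripts (69.2% against 48.7%) make up more of the called genes.

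By end class, 67 called genes (42.1%) differed between riser and faller in the start only, 43 (27%) in both ends, 25 (15.7%) in the 3′ end only and 24 (15.1%) in neither. The riser and faller pairs of the 2119 tested genes not called were 34.6%, 28.3%, 16.1% and 21% in these classes. The 2 most used transcripts were 35.5%, 25.9%, 16.5% and 22.1% in the 2280 tested genes. In the called genes they were 45.3%, 25.2%, 15.1% and 14.5%. For both choices of pair the start-only class held more of the called genes and the class with equal ends fewer. By splicing, 90 called pairs (56.6%) shared their 3′ introns and differed in the 5′ introns, and 14 (8.81%) had the same introns throughout and differed in their ends alone, against 48.5% and 1.84% of the genes not called. The intron classes and the nesting that follows were compared after the values had been seen.

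In 28 called genes the riser was nested in the faller, that is, its introns were a consecutive run of the faller's introns and its ends lay inside the faller's exons. The reverse held in 2 called genes, AKR1A1 (an aldo-keto reductase) and IFITM2 (an interferon-induced membrane protein). Among tested genes not called the counts were 61 and 32. Genes whose riser and faller were nested in either direction were called in 30 of 123 cases (24.4%), and all others in 129 of 2155 (5.99%). Of the 28 genes, 26 differed in the start and 20 in the start alone. Without PromethION replicates 1 and 2 and MinION replicates 1 and 2 in turn, 14, 13, 14 and 17 called genes had a nested riser. ID2, MAD2L2, PSMD8, TPI1, MTX1, OXA1L, FKBP3, COMMD6, PLEKHJ1, NDUFB1 and BAG1 are among them.

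**Figure D3:**
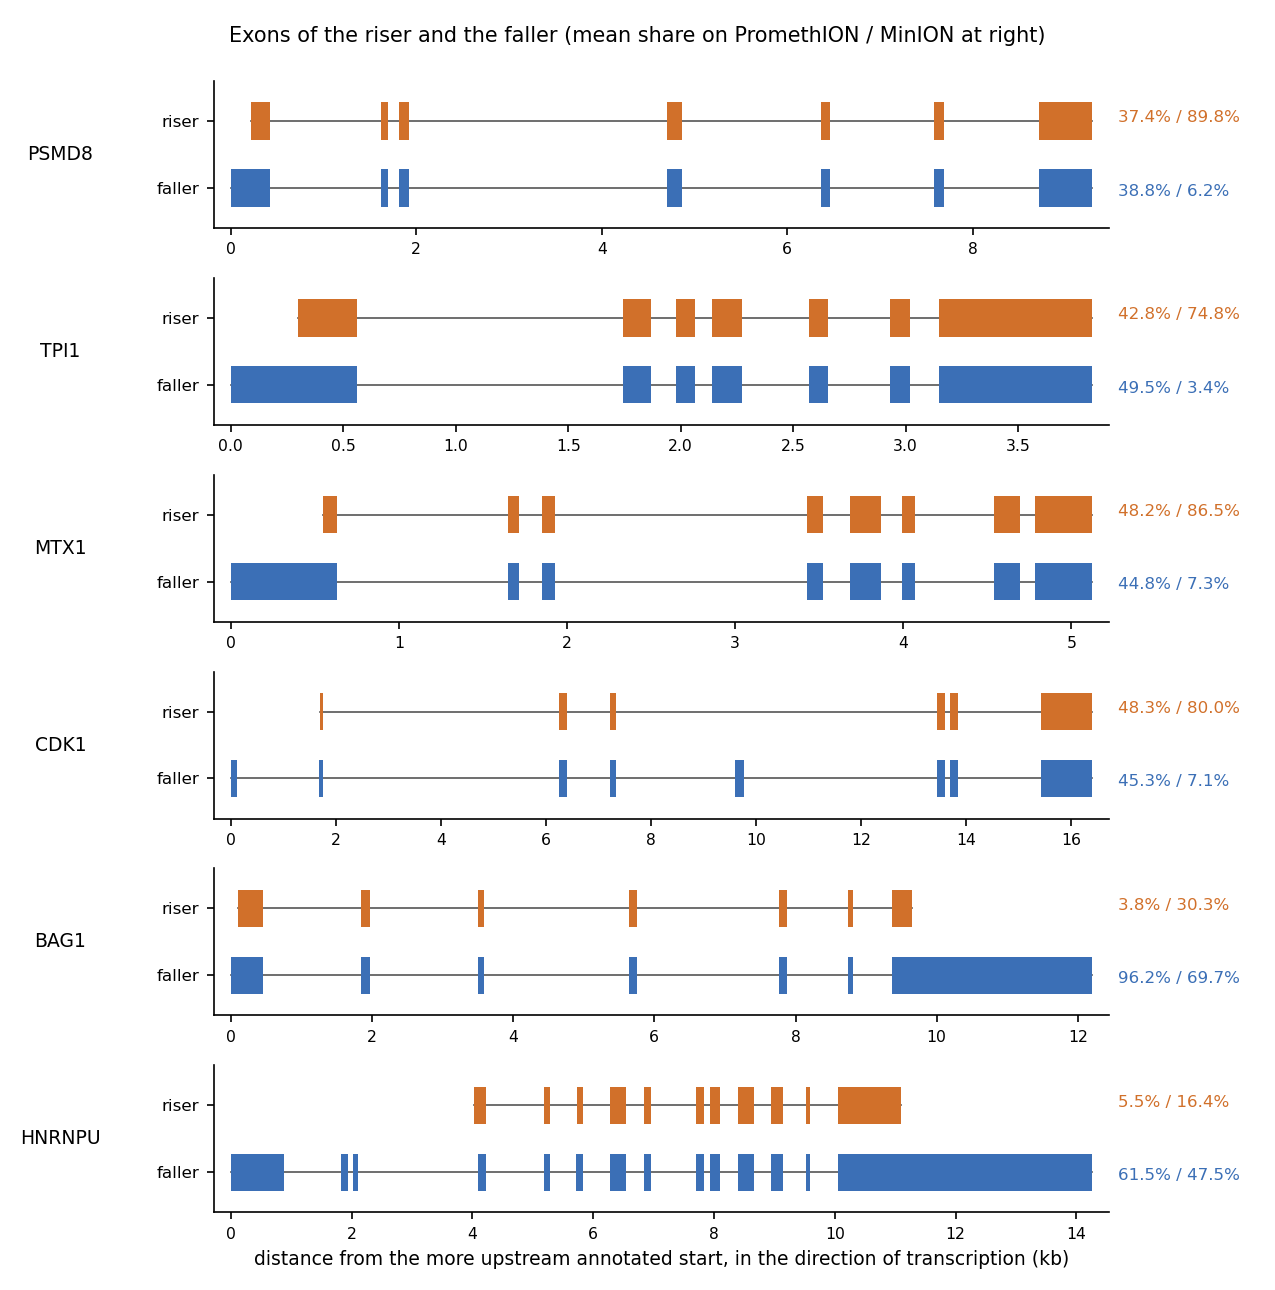
Exons (boxes) and introns (lines) of the riser (orange) and faller (blue) of 6 named genes, drawn to scale from GENCODE 29 in kb from the more upstream start, with the mean share on PromethION and MinION at right. In PSMD8, TPI1, MTX1 and BAG1 the riser lies inside the faller with the same introns; in CDK1 it lacks the first exon and an internal exon, and in HNRNPU it is shorter at both ends.

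MAD2L2, also known as REV7, a subunit of the translesion DNA polymerase zeta and of the shieldin complex in DNA repair, had the largest difference. Its faller ENST00000235310 (chromosome 1, 11674480 to 11691650, minus strand, 11 exons) held 95.3% and 94.3% of the gene's counts in the PromethION libraries and 27.4% and 36.1% in the MinION libraries. Its riser ENST00000376692 (11674481 to 11681214, 9 exons) held 4.67% and 5.72% against 72.6% and 63.2%. The libraries of the instruments were far apart for both transcripts, and both passed the test (gene adjusted p = 0.00019 by edgeR, and 0.016 at most over the alternatives). The riser starts 10436 nt further downstream, at a point that lies inside an exon of the faller, and both encode the same 633 nt of coding sequence, so the difference lies in the 5′ untranslated region. The 6 other lines, sequenced on the PromethION only, had 92.3% to 95.9% of their MAD2L2 counts in the faller.

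ID2, a helix-loop-helix protein that blocks DNA binding of its partners, had a riser that begins 3138 nt downstream of the faller with the same 402 nt of coding sequence. The riser ENST00000396290 (chromosome 2, 8681983 to 8684451) held 7.59% and 8.49% on PromethION and 74.0% and 53.0% on MinION. The MinION libraries differed from each other by more than the PromethION ones, and the call was lost without either PromethION library (largest adjusted p 0.11). In the other lines this transcript held 6.6% to 29.6%.

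In PSMD8, MTX1, OXA1L, TPI1 and NDUFB1 the riser and faller have the same introns and differ in where the first exon begins. PSMD8, a subunit of the lid of the proteasome's regulatory particle, had 39.1% and 35.6% of its counts in the riser ENST00000602911 (chromosome 19, 38374759 to 38383824) on PromethION and 87.6% and 92.1% on MinION, and 41.4% and 36.2% against 7.68% and 4.72% in the faller ENST00000215071, which begins 223 nt further upstream. The faller's annotated coding sequence begins further upstream and is 1050 nt long, against 861 nt in the riser. A further PSMD8 transcript, ENST00000620216, fell from 19.5% and 28.0% to 4.67% and 3.20%. All 3 were called (gene adjusted p = 0.00037 by edgeR), and the riser held 34.0% to 39.2% in the 6 other lines, near the PromethION values of IGROV-1.

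MTX1, a mitochondrial outer membrane import protein, showed the same arrangement with starts 548 nt apart. Its riser ENST00000609421 (chromosome 1, 155209247 to 155213824) rose from 47.7% and 48.6% to 87.2% and 85.8%, and its faller ENST00000368376 fell from 45.3% and 44.4% to 7.04% and 7.59% (gene adjusted p = 6.9e-05). The annotated coding sequence is 1398 nt long in the faller and 951 nt in the riser, with the same end. OXA1L, the inner membrane insertase of mitochondria, rose in ENST00000604262 from 38.3% and 43.6% to 74.3% and 77.4%, with starts 157 nt apart. In both genes the replicates of an instrument lay close together and far from those of the other.

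TPI1 (triose-phosphate isomerase, a glycolytic enzyme) divided most of its counts over 3 transcripts. The faller ENST00000229270 (chromosome 12, 6867119 to 6870948) fell from 49.3% and 49.6% to 3.32% and 3.41%, with the smallest gene adjusted p of the named genes (7.8e-07, edgeR). ENST00000613953, which starts 301 nt downstream with the same 858 nt of coding sequence, rose from 42.7% and 42.9% to 79.9% and 69.7%, and ENST00000396705 rose from 7.97% and 7.51% to 16.8% and 26.9%. The MinION replicates differed in how they divided the counts between the other transcripts and were alike in the low share of ENST00000229270. NDUFB1, an accessory subunit of respiratory complex I, fell in ENST00000329559 from 73.5% and 74.0% to 32.7% and 32.9%, and rose in ENST00000617122, which starts 108 nt downstream, from 12.02% and 11.72% to 32.0% and 32.9%. For NDUFB1 the other lines were spread more widely, with 37.9% to 79.4% in the faller.

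CDK1, the kinase that drives entry into mitosis, differed both at its first exon and at an internal coding exon. The faller ENST00000395284 (chromosome 10, 60778454 to 60794852, 8 exons) fell from 45.7% and 44.9% to 5.28% and 8.99%, and the riser ENST00000373809 (60780153 to 60794852, 6 exons) rose from 49.3% and 47.2% to 80.9% and 79.0% (gene adjusted p = 3.6e-05). A further called CDK1 transcript, ENST00000448257 (8 exons), begins at 60778493, near the start of the faller, but moved the other way. It rose from 0.64% and 1.76% on PromethION to 8.67% and 8.47% on MinION (transcript adjusted p = 0.013, edgeR). The fall of the faller was thus not shared by every transcript that begins near this upstream start. The riser's coding sequence has 720 nt and the faller's 891 nt, with the same first and last coding base. The other lines had 32.9% to 44.1% in the faller. The junctions that distinguish the transcripts are shown as 30 bases on each side, with the downstream exon in capitals, taken from the GENCODE 29 transcripts; the introns of the faller are chr10:60785788-60788059 and chr10:60788231-60791889, and that of the riser is chr10:60785788-60791889.
CDK1 ENST00000395284, into the exon: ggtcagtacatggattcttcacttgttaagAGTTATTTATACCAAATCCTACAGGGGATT
CDK1 ENST00000395284, out of the exon: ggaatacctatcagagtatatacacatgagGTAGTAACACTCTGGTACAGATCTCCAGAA
CDK1 ENST00000373809, across the skipped exon: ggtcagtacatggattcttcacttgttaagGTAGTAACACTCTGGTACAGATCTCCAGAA

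MTMR1, a myotubularin-related lipid phosphatase, was 1 of 3 named genes whose riser was longer. The riser ENST00000445323 (chromosome X, 150693410 to 150765102) rose from 12.3% and 33.2% to 72.5% and 72.0%, while the faller ENST00000370390 fell from 87.7% and 66.9% to 27.5% and 27.4%. The PromethION replicates were far apart but did not reach the MinION values, the gene's adjusted p was 0.033 (edgeR), and the call was lost under 3 of 13 alternatives (0.2 at most). The riser includes a 24 nt coding exon that the faller skips, differs in its last introns, and is 4516 nt long against 2755 nt. The 3 junctions are shown as 30 bases of spliced transcript on each side, with the bases after the junction in capitals. Because the exon has 24 nt, the last 6 capitals of the first sequence belong to the exon after it, and the first 6 lower-case bases of the second to the exon before it; the introns of the riser are chrX:150699301-150712341 and chrX:150712366-150718624, and that of the faller is chrX:150699301-150718624.
MTMR1 ENST00000445323, into the exon: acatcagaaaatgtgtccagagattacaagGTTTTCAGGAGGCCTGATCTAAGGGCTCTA
MTMR1 ENST00000445323, out of the exon: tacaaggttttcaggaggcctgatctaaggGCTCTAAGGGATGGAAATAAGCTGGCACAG
MTMR1 ENST00000370390, across the skipped exon: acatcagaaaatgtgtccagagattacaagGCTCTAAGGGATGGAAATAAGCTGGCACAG

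In FKBP3, COMMD6 and IGBP1 the transcripts had equal or nearly equal shares on PromethION. FKBP3, a nuclear immunophilin with prolyl isomerase activity, had 50% of its counts in each of ENST00000396062 and ENST00000216330 in both PromethION libraries (187 of 374 and 155.5 of 311 counts each). On MinION the shorter ENST00000396062 held 94.4% and 94.8%. The gap between the transcripts was thus 0.00 points in both PromethION libraries and 88.8 and 89.7 on MinION, and it was 0.00 in all 6 other lines. COMMD6, a member of the COMM domain family, had a gap of 0.65 and 0.00 points on PromethION and 76.6 and 76.3 on MinION. In IGBP1, which binds catalytic subunits of PP2A-type phosphatases, the gap was 0.96 and 0.11 against 80.5 and 74.4.

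Equal splits were looked for in all tested genes after these values had been seen, as a gap of at most 2 points between a riser and a faller that together held at least 50% of the gene. In called genes such a split was present in both PromethION libraries for AGRN, COMMD6, FKBP3, IGBP1, OXA1L and WDR74, and in both MinION libraries for NDUFB1 alone. Among tested genes not called it was present in 8 genes on PromethION and 10 on MinION. In FKBP3, COMMD6, OXA1L and WDR74 the 6 other PromethION lines had a gap of 0.00 points as well, whereas AGRN split equally in 1 of them. The reads behind these estimated counts were not analysed here.

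Other genes among the 20 with the largest differences also moved mostly toward the shorter form. In PLEKHJ1, which encodes a pleckstrin homology domain protein, the faller fell from 52.0% and 57.1% to 10.2% and 9.84%, and the riser starts 1384 nt downstream. SNRPD2, a core Sm protein of the splicing snRNPs, rose in ENST00000588301 from 6.62% and 6.10% to 47.4% and 46.5%, although its transcripts start within 17 nt of each other and have the same coding sequence; the faller's own difference missed the threshold (adjusted p = 0.065, edgeR). PTK2, the focal adhesion kinase, had a riser with 18 exons against 32 in the faller. The riser held 11.3% and 14.8% on PromethION and 43.7% and 59.4% on MinION. SSFA2, which encodes a protein that anchors inositol trisphosphate receptors, likewise rose in a form with 10 exons against 18, from 9.12% and 11.9% to 45.1% and 57.4%. In PTK2 and SSFA2 the shorter forms lack the 5′ part of the coding sequence, and both calls were lost under 3 of 13 alternatives.

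TMEM87A, a Golgi membrane protein, rose in ENST00000448392 from 7.62% and 11.03% to 56.8% and 67.6%. CCDC12, a protein of the spliceosome, rose in ENST00000292314 from 18.2% and 9.07% to 48.5% and 48.5%. PREPL, a prolyl endopeptidase-like hydrolase, went the other way in length, with a riser of 6049 nt against 4725 nt that rose from 10.02% and 8.81% to 59.6% and 50.4% and starts 316 nt upstream. These 3 genes do not overlap between instruments, and their calls were lost under 1, 3 and 2 of 13 alternatives.

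**Figure D4:**
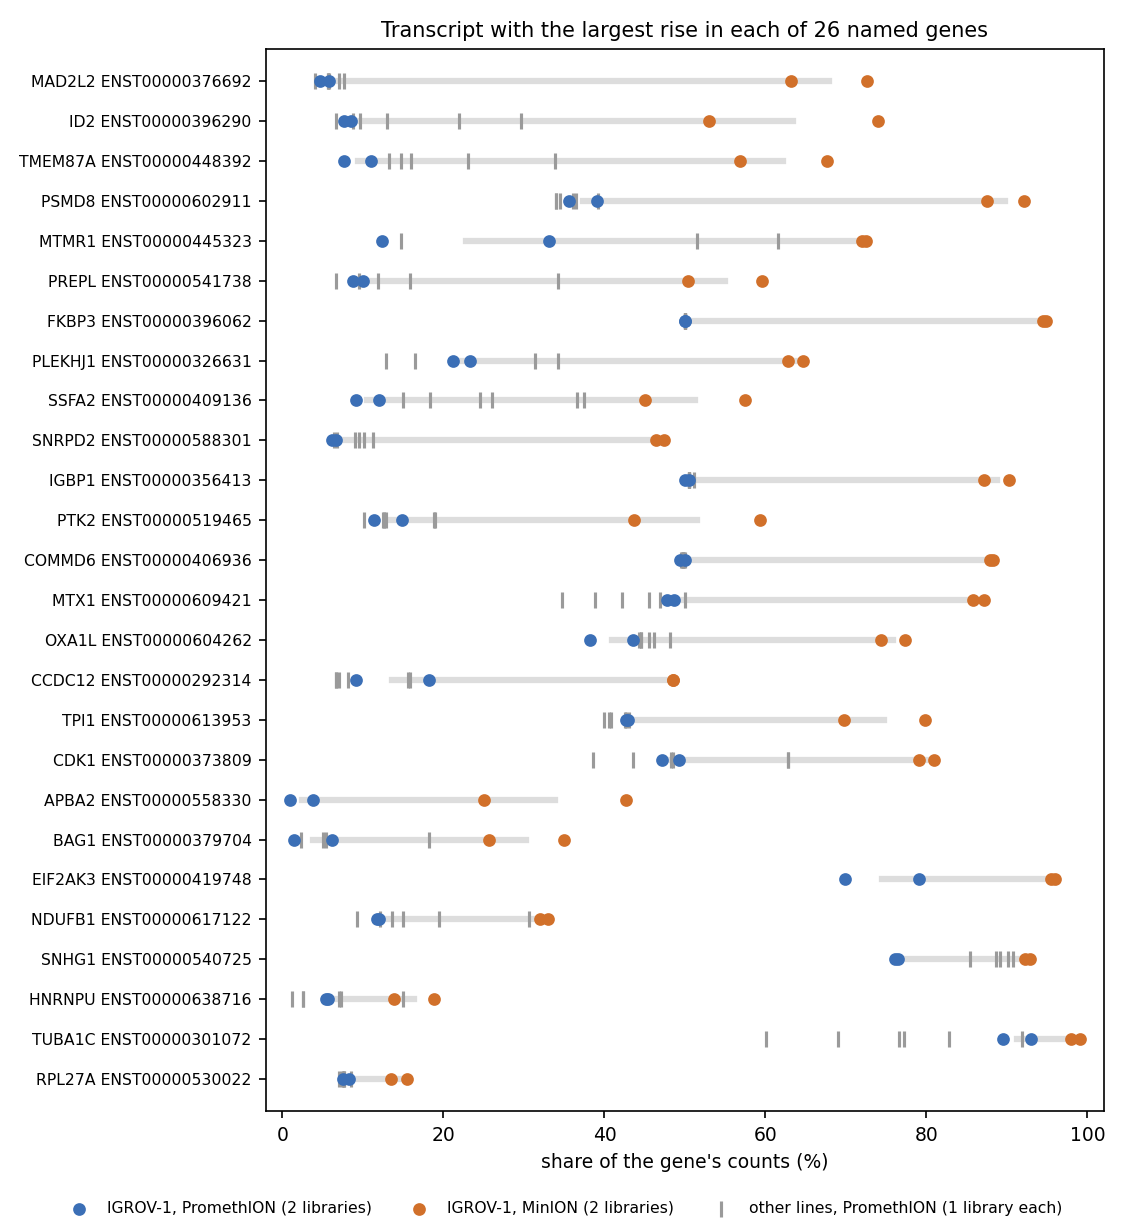
Share of the gene's counts (percent) held by the riser of each of 26 named genes. Blue and orange points are the 2 PromethION and 2 MinION libraries of IGROV-1, grey ticks the 6 other lines on PromethION where the gene had at least 50 counts, and light bars join the IGROV-1 means. No MinION point lies at or below a PromethION point of the same gene, in genes that were chosen for this difference.

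The other lines, which the test did not use, allow each called transcript to be placed beside PromethION libraries of different cells. Of 168 called transcripts with a value in all 6 lines, 84 had all 6 nearer to the PromethION mean of IGROV-1 and 5 had all 6 nearer to the MinION mean. At least 5 of the 6 lines were nearer to PromethION for 116 transcripts and at most 1 for 10. The 6 other lines have 1 library each, all on the PromethION, so line and instrument cannot be told apart where they are set beside the MinION libraries of IGROV-1. SNHG1 had enough counts in 5 of the other lines and is not among the 168. Its faller ENST00000537925 held 16.8% and 16.2% on PromethION and 1.02% and 0.77% on MinION, and those 5 lines had 2.4% to 8.3%, between the instruments.

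Calls were most frequent in deep genes. With the genes divided into 4 depth classes by their lowest count over the 4 libraries, 19 of 575 tested genes were called at 50 to 85 counts (3.30%), 27 of 565 (4.78%), 24 of 570 (4.21%) and 89 of 570 at 307 counts or more (15.6%). The median of the largest share difference in called genes fell from 31.4 points in the shallowest class to 6.79 points in the deepest. The tested genes of the 10 gene lists below had a median lowest count of 245 to 5241, above the 150 of all tested genes in each list, and the part of depth in the lists' counts was not tested.

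**Figure D5:**
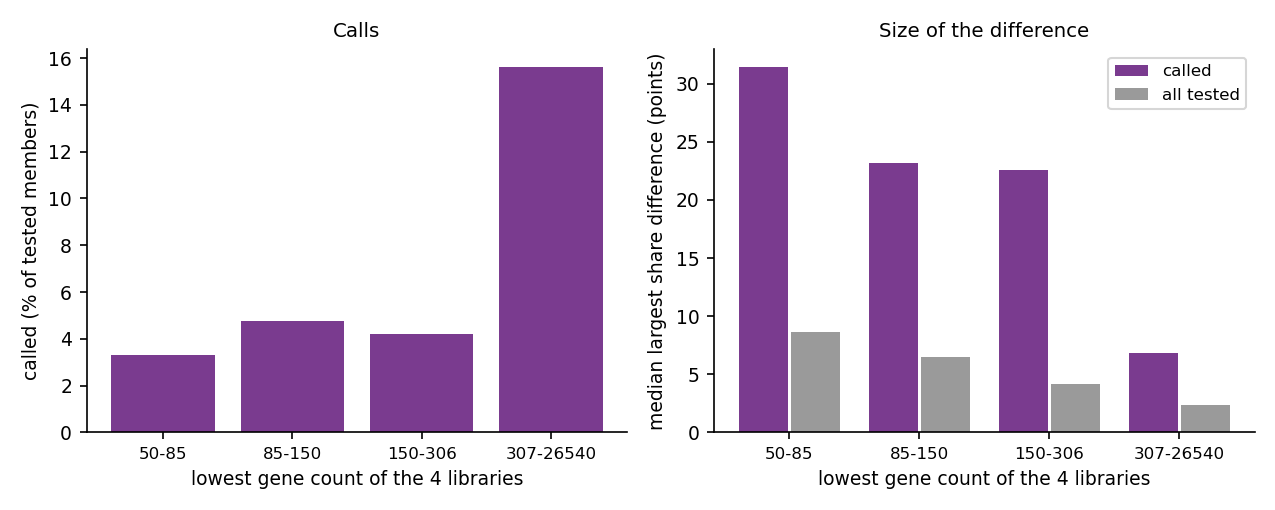
Percent of tested genes called (left) and median of the largest share difference in percentage points (right; purple called, grey all tested) by depth class, the lowest gene count over the 4 IGROV-1 libraries. The share of called genes is 15.6% in the deepest class and 3.30% to 4.78% in the others, while the median difference of called genes falls from 31.4 to 6.79 points.

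Protein-coding genes made up 151 of the 159 called genes, at 7.25% of 2083 tested, against 6.97% of all tested genes. Identifiers that join several overlapping genes were called in 6 of 186 cases (3.23%). Of the 8 other gene types, called genes were found in 1, the processed transcripts GAS5 and SNHG1, which host small nucleolar RNAs in their introns (2 of 6 tested, and 2 of 7 in the list of such host genes). Without PromethION replicates 1 and 2 and MinION replicates 1 and 2 in turn, 0, 1, 1 and 1 gene of that list was called. The annotated coding region differed between riser and faller in 100 called genes (62.9%), was the same in 53 (33.3%), and was absent from at least 1 of the pair in 6. The share of counts in protein-coding transcript types was 99.04% to 99.06% in all 4 libraries.

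Among cytosolic ribosomal proteins, 14 of 62 tested genes were called (22.6%, against 6.97% of all tested genes), with small differences: the median of the largest share difference over the 62 genes was 1.19 points, against 5.18 over all tested genes. Their median lowest count was 5241, against 150 over all tested genes. Leaving out PromethION replicates 1 and 2 and MinION replicates 1 and 2 in turn left 4, 5, 6 and 9 called ribosomal protein genes; counts of the other gene lists follow in the same order of left-out libraries. RPL27A had the largest difference of a called transcript, ENST00000530022 (chromosome 11, 8682810 to 8685848), which rose from 8.28% and 7.49% to 13.5% and 15.5%. Its other main form, ENST00000314138, is 4916 nt long and ends 4024 nt further downstream; it held 90.1% and 91.2% on PromethION and 85.2% and 82.8% on MinION but did not pass alone, and the gene's call was lost under 5 of 13 alternatives. RPL32 rose in the 620 nt transcript ENST00000435983 from 2.46% and 2.70% to 5.94% and 6.31%, and RPS3 rose in the 866 nt transcript ENST00000524851 from 0.91% and 0.78% to 4.14% and 3.79%. In RPL32 and RPS3 the faller was 2117 nt and 2097 nt long. RPS24, which has well-known alternative 3′ exons, fell in ENST00000435275 from 1.42% and 1.68% to 0.04% and 0.10%. Of the 14 genes the riser was shorter in 10 and longer in 4, near the 118 and 41 of all 159 called genes.

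Chaperones, the proteins that fold other proteins (median lowest count 640.5), were called in 6 of 24 tested genes (25.0%, against 6.97% of all tested genes). With 1 library left out the count was 2, 1, 2 and 2. BAG1, a nucleotide exchange factor of HSP70 with several isoforms from different translation starts, rose in the 1128 nt transcript ENST00000379704 (chromosome 9, 33255026 to 33264571) from 6.18% and 1.42% to 34.9% and 25.6%. Its faller ENST00000634734 has the same introns, ends 2555 nt further downstream, and held 93.8% and 98.6% against 65.1% and 74.3% but did not pass alone (adjusted p = 0.5, edgeR). BAG1 was not called where PromethION replicate 2 (adjusted p = 0.17, edgeR) or MinION replicate 1 (adjusted p = 0.11, edgeR) was left out. HSPA8, the constitutive HSP70, rose in ENST00000227378 from 0.99% and 1.12% to 6.11% and 4.58%, again a form nested in its faller. CCT5, HSP90AB1, HSPD1 and TCP1 had differences of at most 6.15 points.

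Proteasome subunits (median lowest count 258.5) were called in 4 of 20 tested genes (20%, against 6.97% of all tested genes). In all 4 the riser was the shorter transcript, as it was in 118 of all 159 called genes. With 1 library left out 1, 1, 2 and 2 were called. Beside PSMD8, PSMA4 rose in ENST00000559082 from 7.25% and 7.54% to 19.95% and 19.53%, and PSMC1 rose in ENST00000543772 from 0.68% and 0.31% to 10.4% and 7.63%. The riser ended 3233 nt and 2879 nt upstream of the faller in these genes, so that here the 3′ end and not the start was what differed most. PSMC6 rose in ENST00000606149 from 7.30% and 6.71% to 34.1% and 18.0%.

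Among splicing regulators of the SR and hnRNP families (median lowest count 616), 5 of 24 tested genes were called, all of them hnRNP genes (20.8%, against 6.97% of all tested genes). The count was 1, 0, 3 and 2 with 1 library left out, and 9 with limma. HNRNPU, a nuclear matrix protein that binds RNA, rose in the 2640 nt transcript ENST00000638716 from 5.69% and 5.35% to 13.9% and 18.9%; its 6827 nt form held 61.4% and 61.6% on PromethION and 49.6% and 45.4% on MinION and did not pass alone. HNRNPK rose in ENST00000351839 from 5.11% and 5.36% to 13.3% and 12.5%. HNRNPDL fell in its 3781 nt form ENST00000295470 from 11.5% and 14.0% to 6.87% and 7.31%. In 4 of the 5 genes the riser was shorter, as it was in 118 of all 159 called genes.

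Glycolytic enzymes (median lowest count 2021) were called in 3 of 8 tested genes, against 6.97% of all tested genes. Each fit with 1 library left out called 2. Beside TPI1, GAPDH rose in ENST00000396859, which starts 827 nt downstream of the faller, from 3.41% and 2.86% to 6.50% and 7.56%. PKM, the pyruvate kinase gene, fell in ENST00000319622 from 3.09% and 3.35% to 0.85% and 1.19%. Tested genes of the cytoskeletal list were deep as well, with a median lowest count of 2007 against 150 over all tested genes. In the deepest class 15.6% of all tested genes were called. The cytoskeletal list had 5 of 13 called (2, 0, 1 and 4 with 1 library left out), and TUBA1C, an alpha tubulin, had the largest difference, a fall of ENST00000541364 from 6.96% and 10.3% to 0.96% and 1.93%. That transcript begins 36981 nt upstream of the main one and held 8.1% in COV504, between the PromethION values of IGROV-1, and 17.2% to 39.9% in the 5 other lines, above them. CFL1, an actin-severing protein, rose in ENST00000308162 from 1.62% and 1.26% to 3.88% and 2.99%. Alpha tubulin and actin genes have near-identical copies and pseudogenes, and their counts are uncertain for that reason.

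Translation factors were called in 5 of 31 tested genes (16.1%), and in 0, 1, 1 and 2 with 1 library left out. EIF2AK3, the kinase PERK of the unfolded protein response, fell in ENST00000303236 from 30.2% and 20.9% to 4.50% and 4.07%, on 53 to 94 counts of the gene, and lost its call under 8 of 12 alternatives. EIF4H, a cofactor of the helicase that unwinds mRNA leaders, rose in ENST00000265753 from 19.7% and 19.8% to 33.7% and 37.3%; this riser is the longer form, and the other lines held 27.9% to 39.7%, a range that includes both MinION values and neither PromethION value. Of all tested genes 6.97% were called, and 15.6% of those in the deepest class (a lowest count of 307 or more). The translation factors had a median lowest count of 644 and the nuclear genes of oxidative phosphorylation one of 534. Of the latter, 4 of 37 were called (10.8%): NDUFB1, ATP5G2, COX14 and NDUFB4. With 1 library left out 1, 1, 2 and 1 were called, and 7 with limma. COX14, an assembly factor of cytochrome c oxidase, fell in ENST00000550654 from 25.6% and 32.8% to 11.6% and 13.9%. Of 4 tested immediate early and ID genes, ID2 alone was called, and none without PromethION replicate 1 or without PromethION replicate 2.

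Of the genes whose end class was the 3′ end only, APBA2 had the largest difference of a called transcript. That class does not take introns into account, and the APBA2 pair also differs in an internal coding exon. The riser skips this exon and has 15 exons against 16 in the faller, with 2211 nt of coding sequence against 2247 nt. APBA2 is an adaptor that binds the amyloid precursor protein. Its riser ENST00000558330 held 0.99% and 3.76% on PromethION and 25.0% and 42.7% on MinION and ends 598 nt upstream of the faller, which held 81.1% and 42.1% against 43.6% and 28.4% and overlapped between instruments. The gene had 52 to 67 counts per library, the adjusted p was 0.036 (edgeR), and the call was lost under 6 of 11 alternatives.

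Averaged over all 4119 genes with equal weight, the shifts were small. The mean share of the most upstream start (in genes with starts over 50 nt apart) was 63.18% and 63.16% on PromethION and 62.43% and 62.18% on MinION. The mean share-weighted spliced length was 3462 and 3467 nt against 3449 and 3450 nt. The mean share of the longest transcript was 57.50% and 57.47% against 56.73% and 56.72%, and that of the most downstream 3′ end 76.91% and 76.95% against 76.52% and 76.61%. The 2 values of an instrument lay closer to each other than to those of the other instrument for each of these measures, and no overlap was seen, but an exact two-sided permutation test of 2 against 2 libraries cannot give a p below 0.33.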

How the data were processed

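Transcript abundance was measured by nanopore sequencing, and the 4 IGROV-1 libraries (2 PromethION, 2 MinION) were compared; 6 libraries of other lines gave values only. In every library the authors' values are estimated counts, some of them fractional, over 1 common list of 99493 transcripts. The authors also deposited TPM values, which equal the counts scaled to the library total and were used for marker levels only, as CPM. Reads were aligned with minimap2 2.24-r1122 to GRCh38, per the submitters' processing notes; for the quantification settings, the annotation release and the use of strand nothing is given in the sources used here. Counting without strand would leave overlapping and antisense genes uncertain. Of the transcripts, 99362 (99.9%) were found in GENCODE 29, which supplied exons, lengths and coding regions, and 97943 (98.6%) have the same coordinates there. Ends are annotated ends, not read ends, because every listed transcript is an annotated one.

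The tests used rounded counts, with a loss of up to 0.022% of a library's total. Transcripts passing edgeR's default filter by group (14023) were fitted with edgeR 4.0.16 (R 4.3.3; TMM, quasi-likelihood in its earlier form; coefficient of variation 14.4%), and usage was tested with its exon-level procedure which gives a two-sided Simes p per gene; a call needed a Benjamini-Hochberg adjusted p below 0.05. On simulated data for this comparison, the most abundant transcript of 200 genes was changed. A log2 change of 1 was recovered in 5% of changed genes, with 0% false among 10 calls (2831 genes). A change of 2 was recovered in 67%, with 3.6% false among 139 calls (2805 genes). Changes of minor transcripts were not simulated. Named genes were the 20 called genes, joined identifiers left out, with the largest share difference of a called transcript, plus the largest of each gene list and end class. The result for 1 of these 27 genes is not reported here. The genes, lists and classes were chosen with earlier results of these data known. Alternatives were DESeq2 size factors, DESeq2 1.42.0, limma 3.58.1, other filters, thinning, a replicate block, other count minimums and end tolerances, and each library left out. With 2 libraries per instrument the values of both are given in place of an SD.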

Additional observations from a re-analysis of the deposited data

How the results depend on the processing

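Of the 159 genes called, 158 stayed called with DESeq2 size factors, 151 with limma, 135 with DESeq2 and 159 with the newer quasi-likelihood fit of edgeR, which was added after the data were seen. The number of called genes, with transcripts higher and lower on MinION in brackets, was 295 (255 and 247) with limma, 241 (179 and 142) with the newer fit, and 103 (81 and 55) where 200 counts per library were required, which leaves fewer genes. Leaving out 1 library gave 38 to 60 genes (16 to 50 higher, 25 to 46 lower); those fits have fewer samples, and 37, 38, 56 and 57 of the calls without PromethION replicates 1 and 2 and MinION replicates 1 and 2 were among the 159. The percent of risers starting downstream, 75.5% of the called genes with starts apart, stayed between 68.3% and 80.7% over the other alternatives and was 73.3% to 89.3% with 1 library left out; the riser was shorter in 110 of the 147 called genes whose lengths differed by over 50 nt, and this 74.8% became 76.8% to 83.3% with 1 library left out. With 1 library left out the start-only class held 50% to 59% of called genes, the end-only class 2.63% to 13.3%, both ends 17.9% to 26.7% and neither 10% to 23.7%. With ends taken as equal within 10 nt, 6.29% differed in the end only, 46.5% in both and 4.4% in neither, and within 200 nt 22.6%, 13.8% and 28.3%, by the construction of the classes.

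The excess of the usage distance across instruments over that within them was 0.654 points, 0.557 at equal depth and 0.536 to 0.741 with 1 library left out. The difference in weighted length (MinION minus PromethION) was -15 nt, -12.4 to -17.4 nt with 1 library left out and -131 nt when weighted by counts, where deep genes dominate by construction. That in the share of the most upstream start was -0.863 points, -0.702 at 200 counts, -0.731 at 10 nt, -0.631 weighted by counts and -0.719 to -1.01 with 1 library left out. The share of a transcript does not depend on the test or the filter. Shares of called transcripts did not overlap between instruments, so leaving out 1 library could not reverse a difference. No share difference changed sign under any alternative, but all except thinning fixed this in advance for the 27 named genes. Without PromethION replicate 1 or 2, 10 and 11 of them lost their call, and 7 did without either MinION replicate. With all 4 libraries, calls were lost for EIF2AK3 (no filter, DESeq2, thinning, replicate block), APBA2 (no filter, limma) and RPL27A (no filter). The causes were not tested. In simulated data of this size a log2 change of 1 in the most abundant transcript was called in 5% of changed genes.

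The labels give both instruments replicates 1 and 2 without saying what a number shares. Same-numbered libraries deviated together with a correlation of 0.219 over 14023 transcripts, from 2 pairs only, and KRT18 and COL1A1 followed the replicate number. These values do not settle whether the libraries are paired. The main test did not take them as paired. With the replicate block 214 genes were called, 149 of them among the 159, with 190 transcripts higher and 139 lower on MinION.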
